A study of Homo sapiens with 9 samples.

Results

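The zinc finger genes of human chromosome 19 were taken as every row of the deposited table that lay on chromosome 19 and carried a symbol made of ZNF, a number and at most 1 further letter. This gave 259 of 25084 genes. With at least 1 CPM (a read count rescaled so that each library sums to 1 M) in at least 3 of 9 libraries, 247 of the 259 entered the tests. The 12 members left out were ZNF556, ZNF812P, ZNF833P, ZNF56, ZNF723, ZNF728, ZNF807P, ZNF575, ZNF285B, ZNF296, ZNF541 and ZNF534. A stretch resembling the KRAB domain of ZNF10 was found in the predicted protein of 211 members, 34 members had a protein without one, and 14 had no usable translation in the annotation used. Among these 14 was ZNF274, which is annotated as protein coding and was thus left out of the KRAB and finger counts below.

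Zinc finger genes of this type encode proteins in which a run of small zinc-binding loops reads a DNA sequence. Many also carry a KRAB domain, which recruits the scaffold protein TRIM28 and through it the histone methyltransferase SETDB1 to silence chromatin, often at transposable elements. The genes multiplied by tandem duplication, so that chromosome 19 holds them in dense clusters of related copies.

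The cells were LAN5, an established human neuroblastoma line, grown in RPMI-1640 with fetal calf serum. All 9 libraries came from cells that had received siRNA (small interfering RNA, which leads to breakdown of the mRNA it pairs with), delivered by electroporation in a nucleofector, and RNA was taken after 72 h. There were 3 libraries for the control siRNA (siCTR), 3 for MYCN knockdown (siMYCN) and 3 for HAND2 knockdown (siHAND2). The series asks which genes these transcription factors regulate. All libraries of a knockdown carried the same siRNA label, and the labels do not say whether replicates were separate cultures, so the p-values measure only the spread between these samples.

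The reads assigned to genes were 21.1 M to 32.7 M per library (M as in CPM, estimated from the smallest step between low values), and counting error at 5 CPM was 7.82% to 9.74% (coefficient of variation). MYCN averaged 1842 CPM with the control siRNA, and it fell to 1289 CPM in siMYCN and to 914.5 CPM in siHAND2 (limma, Benjamini-Hochberg adjusted p = 7.15e-07 and 1.72e-10), so that it was lower in both knockdowns. HAND2 fell by 0.88 on the log2(CPM + 1) scale, used for every change below, in siHAND2 and rose by 0.19 in siMYCN (limma, adjusted p = 1.25e-10 and 0.00183). All 6 markers of the line were present, summing to 1323 to 1933 CPM, while the 3 markers of other cell types in the table summed to 2.87 to 3.95 CPM. The line marker TH was low (1.18 to 4.42 CPM), in the range of EPCAM among the others (2.79 to 3.95 CPM), and line markers changed with the knockdowns, among them DBH by 0.38 in siMYCN and -1.01 in siHAND2 and STMN2 by 0.71 and 0.95. CHGB rose by 0.70 in siMYCN, while its change of -0.03 in siHAND2 did not pass the test. The part of this in the members' changes was not tested. In such bulk samples, fewer cells expressing a gene and less RNA per cell cannot be told apart.

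Most members were expressed at moderate levels. The median member that passed the filter had a mean of 19.98 CPM over the 9 libraries, beside 23.1 CPM for all 14495 genes tested, and the 10 highest members held 16.0% of the members' summed CPM. Of the 259, 74 had a mean of 30 CPM or more, 115 lay at 10 to 30, 45 at 3 to 10 and 25 under 3. Per length, the median member measured 5.01 CPM per kb of annotated transcript in siCTR. The highest in CPM was ZNF146, a short protein of zinc fingers without a KRAB-like stretch, which measured 59.6 CPM per kb in siCTR. ZNF121 measured 19.5 CPM per kb, ZNF91 17.9, ZNF260 14.8, ZNF714 12.1 and ZNF562 7.86, the other members of the 6 highest in CPM.

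Summed over all 259 members, the siCTR libraries gave 5885, 5782 and 6048 CPM. The siMYCN libraries gave 6075, 6188 and 6486 CPM, and the siHAND2 libraries 6401, 6531 and 7080 CPM. Every siMYCN and every siHAND2 library lay above every siCTR library, and siMYCN and siHAND2 overlapped. Group means came to 5905 ± 134, 6250 ± 212 and 6671 ± 361 CPM (SD, n = 3), or 0.590%, 0.625% and 0.667% of all CPM.

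More members rose after HAND2 knockdown than after MYCN knockdown when each was set against siCTR. In siHAND2, 88 of 247 tested members rose (35.6%) and 2 fell, at a limma adjusted p under 0.05. Over all genes tested, 18.1% rose and 11.8% fell. The median log2 change of the members was 0.15, beside 0.04 over all genes tested, and 207 of 247 changes were above 0. In siMYCN, 52 members rose (21.1%) and 5 fell, while over all genes 24.5% rose and 11.4% fell. The member median there was 0.08, beside 0.06. The siMYCN share of rises was thus near the background, and the siHAND2 share was above it. Both comparisons use the same 3 siCTR libraries.

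Rescaling the libraries by median ratios changed the siMYCN split to 28 higher and 15 lower, and quantile normalization changed it to 27 and 14. All genes moved too: under these scalings 16.1% and 16.1% of them were higher in siMYCN and 16.3% and 16.5% lower. The siHAND2 member split became 62 and 8, and 67 and 4, beside 12.4% and 13.7% of all genes higher and 17.1% and 14.9% lower. Without siCTR replicate 2, 52 members were higher in siHAND2 and 27 in siMYCN, and without siMYCN replicate 3, 29 were higher in siMYCN.

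Zinc finger genes with ZNF symbols on other chromosomes gave a similar count in siHAND2, with 82 of 242 higher (33.9%), 5 lower and a median log2 change of 0.13. The other genes of chromosome 19 gave 107 of 816 higher (13.1%), 81 lower and a median of 0.03. In siMYCN, 64 of the 242 ZNF genes elsewhere and 209 of the 816 other genes of chromosome 19 were higher. The siHAND2 share of higher members was highest among the abundant ones. It was 2 of 13 under 3 CPM, 12 of 45 at 3 to 10 CPM, 32 of 115 at 10 to 30 CPM and 42 of 74 (56.8%) at 30 CPM or more. All genes tested in the same classes gave 11.9%, 16.5%, 18.9% and 20.8%. The members' median changes did not rise with level, at 0.20, 0.155, 0.13 and 0.18 in the same order.

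**Figure D1:**
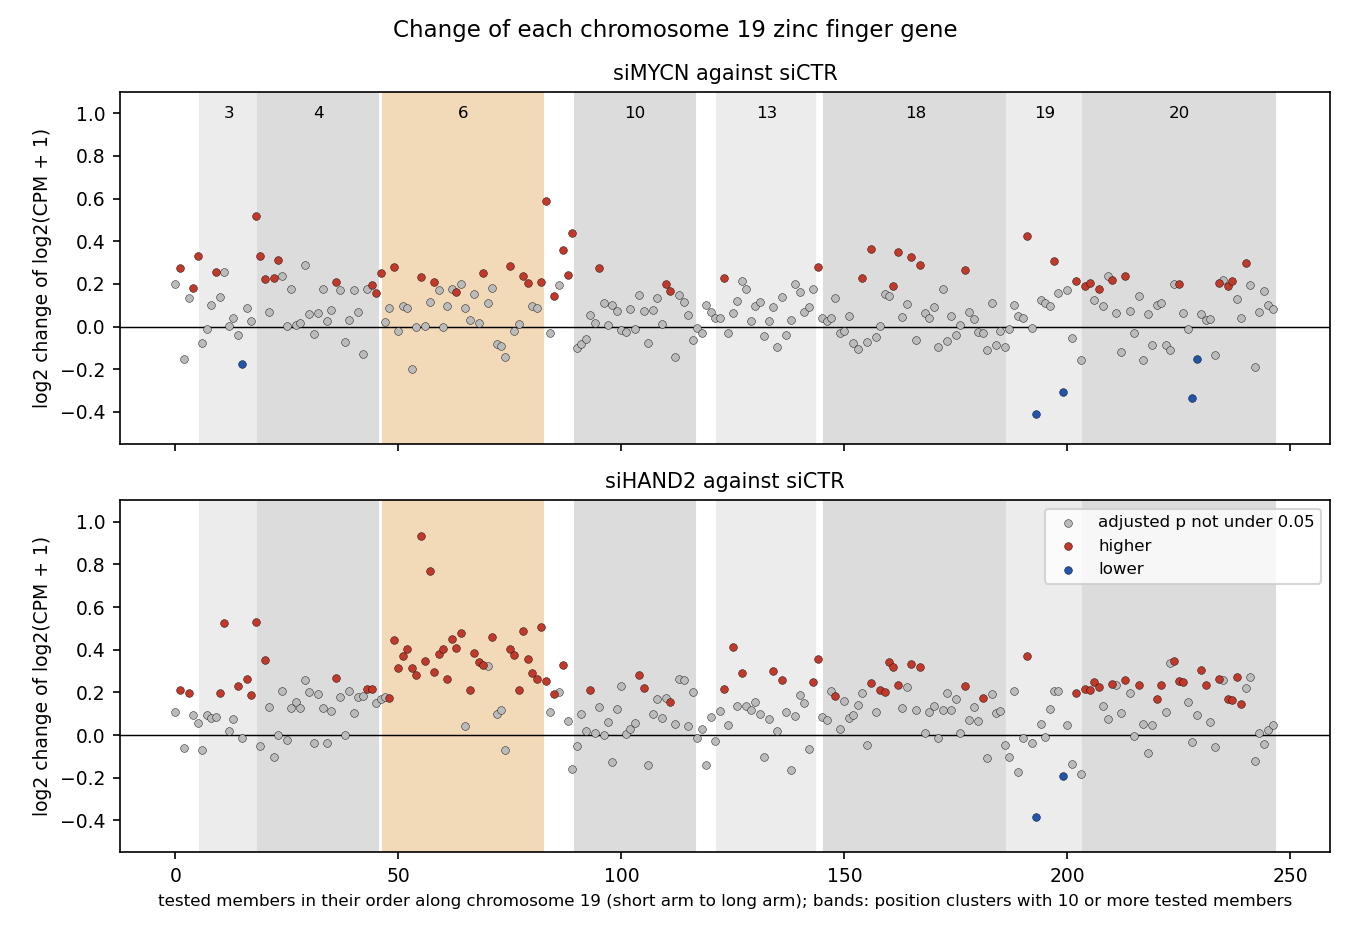
Log2 change on the log2(CPM + 1) scale of each of the 247 tested members, in their order along chromosome 19, for siMYCN (top) and siHAND2 (bottom) against siCTR. Red and blue points passed an adjusted p under 0.05, and bands mark position clusters with 10 or more tested members. In the orange band (cluster 6, ZNF101 to ZNF254) 30 of 36 points are red in siHAND2 and 9 of 36 in siMYCN.

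Of the 88 members that rose in siHAND2, 30 lay in 1 stretch of the chromosome. Members were put in 1 position cluster where neighbouring starts lay at most 500000 bases apart, which gave 20 clusters. The sixth, from ZNF101 to ZNF254 (chr19:19668796-24129961, GRCh38), runs along the short arm towards the centromere and holds 39 members, 37 of them with a KRAB-like stretch and 36 of them tested. It was singled out after its values were seen. Of the 36, 30 rose in siHAND2 (83.3%). The single change below 0 was that of ZNF849P, which did not pass the test (-0.07, limma, adjusted p = 0.690). The 36 changes had a median of 0.34 and reached 0.94. The 211 tested members elsewhere on the chromosome gave 58 higher (27.5%), 2 lower and a median of 0.13. In siMYCN, 9 of the 36 rose, with a median of 0.09, beside 43 of 211 and 0.07.

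The count in this cluster was 25 to 31 of 36 when any 1 library was left out, and 27 under both other scalings. Without all 3 libraries numbered 3, which had the highest member sums of their groups, it was 25, beside 16.9% of all genes. The siMYCN count was less steady. It was 4 under both scalings, 5 without siCTR replicate 1, 4 without siCTR replicate 2 and 3 without siMYCN replicate 3.

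Among the other large clusters, the share that rose in siHAND2 was highest from ZNF414 to ZNF846, with 6 of 13, and at the end of the long arm (ZNF264 to ZNF446), with 19 of 43. It was 11 of 41 from ZNF175 to ZNF331, 6 of 22 from ZNF575 to ZNF180, and 4 of 27 both from ZNF653 to ZNF791 and from ZNF565 to ZNF573. From ZNF628 to ZNF835, 2 of 17 rose and 2 fell. In siMYCN no large cluster exceeded 7 of 27, reached from ZNF653 to ZNF791, where both other scalings left 3.

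**Figure D2:**
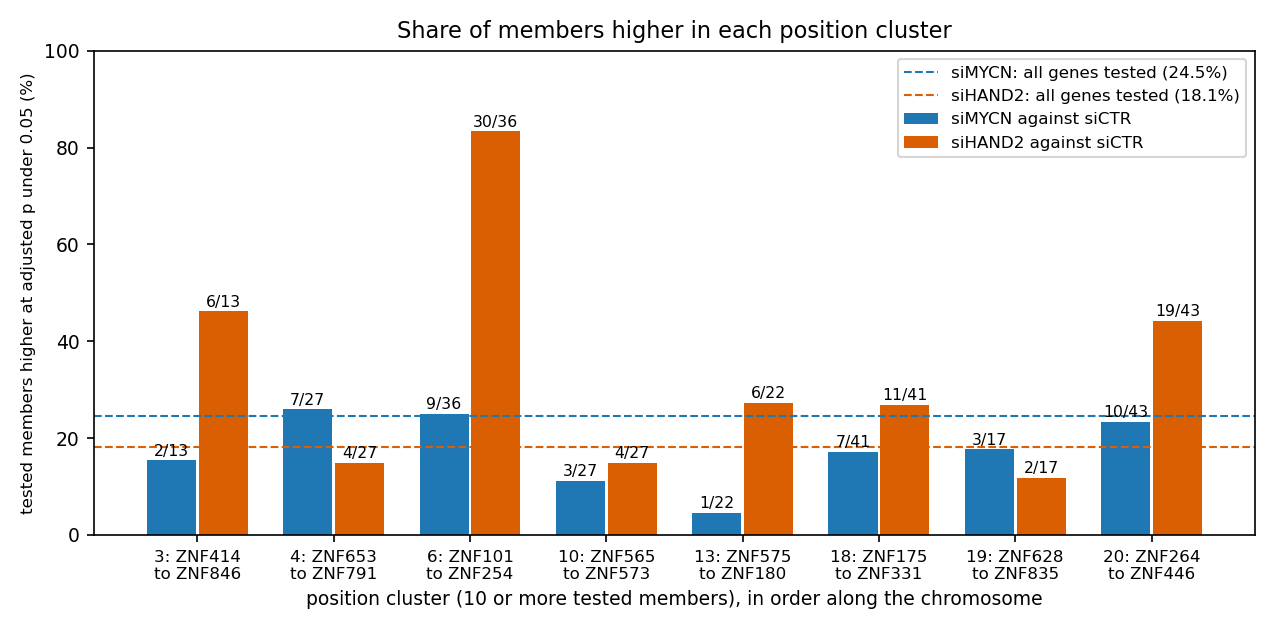
Percent of tested members that were higher at a limma adjusted p under 0.05, in each position cluster with 10 or more tested members, for siMYCN (blue) and siHAND2 (orange) against siCTR. Dashed lines give the share over all 14495 genes tested, 24.5% and 18.1%, and the tallest bar is 30 of 36 in siHAND2 from ZNF101 to ZNF254.

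Summed over its 39 members, the cluster from ZNF101 to ZNF254 measured 988, 973 and 1033 CPM under siCTR and 1033, 1075 and 1141 CPM under siMYCN. In siHAND2 it measured 1222, 1256 and 1445 CPM. All 3 siHAND2 libraries lay above all 6 others, whereas the highest siCTR and the lowest siMYCN library nearly touched. The siHAND2 mean was 131% of the siCTR mean (1308 ± 120 against 998 ± 31.1 CPM, SD, n = 3) and the siMYCN mean 109%. The other 220 members together reached 109% in siHAND2 and 105% in siMYCN.

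**Figure D3:**
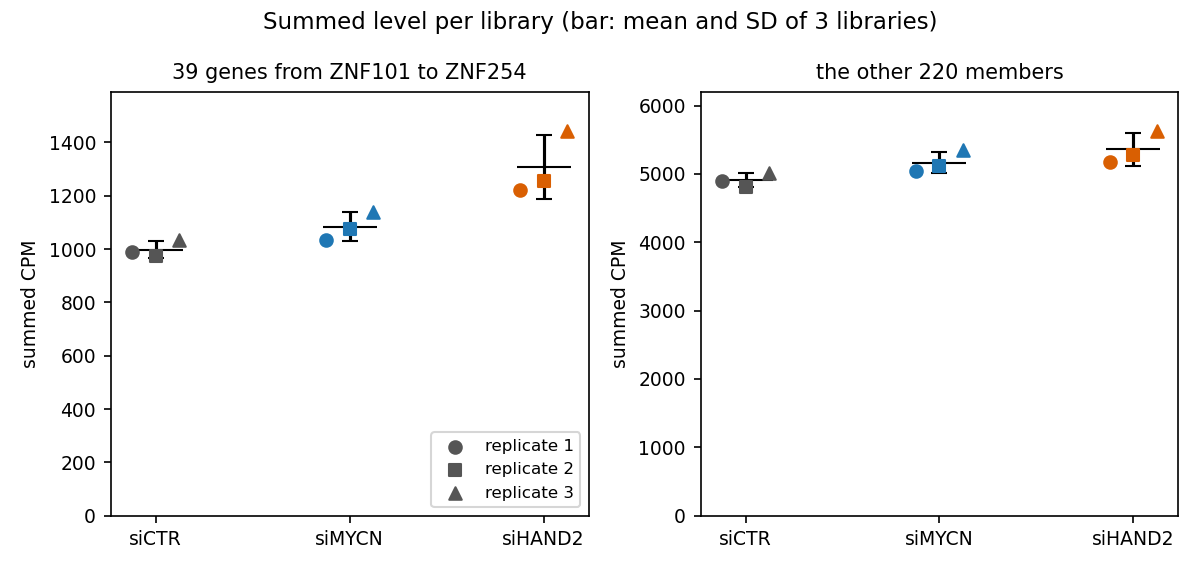
Summed CPM per library of the 39 members from ZNF101 to ZNF254 (left) and of the other 220 members (right), with the group mean and SD of 3 libraries. On the left the siHAND2 libraries sit at 1222 to 1445 CPM and the other 6 at 973 to 1141.

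The largest rise of any member was that of ZNF737, a KRAB zinc finger gene inside the cluster (chr19:20535825-20565809, minus strand). ZNF737 measured 38.6, 34.5 and 37.01 CPM under siCTR, 41.7, 42.7 and 45.2 CPM under siMYCN and 66.9, 67.5 and 79.3 CPM under siHAND2. The 3 groups did not overlap, and siHAND2 stood far above both others. In siHAND2 ZNF737 rose by 0.94 in log2 units (limma, standard error 0.065, adjusted p = 1.79e-08). In siMYCN its rise was 0.23 (adjusted p = 0.0112), which was no longer called without siCTR replicate 2 or siMYCN replicate 3.

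The second was ZNF66 (chr19:20776304-20809995, plus strand). It measured 7.28, 8.24 and 9.63 CPM under siCTR and 12.8, 15.3 and 17.0 CPM under siHAND2, with no overlap. In siMYCN it measured 7.89, 9.25 and 10.4 CPM, within and just above the siCTR range. ZNF66 rose by 0.77 in siHAND2 (standard error 0.11, limma, adjusted p = 7.73e-05).

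The cluster promoters share sequence, which is shown here because the genes moved together. RefSeq promoters (GRCh38.p14, 250 bases before to 50 after the start site) were found for 29 of the 39 cluster members. The hexamer CATCTG, an E-box form that HAND2 binds with E-proteins, lay 143 bases before the start site of ZNF737 in such a promoter. The 46 bases centred on it were compared without gaps, on the strand of the gene, with the 250 bases upstream of every start site. The choice of ZNF737 was made after its values were seen. Windows from 7 promoters follow, 5′ to 3′ on the strand of the gene, with CATCTG in capitals where it is present at that place.
ZNF737, chr19:20565899-20565944, minus strand: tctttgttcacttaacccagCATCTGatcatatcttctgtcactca
ZNF208, chr19:22011056-22011101, minus strand: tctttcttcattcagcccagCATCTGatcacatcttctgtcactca
ZNF85, chr19:20923093-20923138, plus strand: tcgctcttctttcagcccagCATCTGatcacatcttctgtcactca
ZNF708, chr19:21329471-21329516, minus strand: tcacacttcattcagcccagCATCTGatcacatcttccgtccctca
ZNF66, chr19:20776141-20776186, plus strand: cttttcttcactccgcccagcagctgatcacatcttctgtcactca
ZNF91, chr19:23395590-23395635, minus strand: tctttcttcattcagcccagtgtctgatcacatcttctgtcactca
ZNF254, chr19:24087029-24087074, plus strand: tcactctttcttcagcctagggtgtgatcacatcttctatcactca

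A window matching that of ZNF737 at 34 or more of 46 bases was found in 22 of the 29 cluster promoters (75.9%). ZNF737, the source of the window and the member with the largest rise, is counted here and in the 9 below. None of the 187 promoters of other members had one, and 10 of 27089 promoters of all other genes (0.0369%) did. ZNF254 matched at 32 bases and so fell just short. Genes rose with and without the hexamer. Of tested cluster members with a matching window and CATCTG at this place, 9 of 9 rose in siHAND2, with a median of 0.30. With a matching window but another hexamer, as in ZNF91 and ZNF66, 11 of 12 rose, with a median of 0.36. Under 34 matching bases, 5 of 7 rose, with a median of 0.37. These 7 are not all promoters without the shared sequence, since no gaps were allowed. ZNF730, at 27 matching bases, carries CATCTG at this place and rose by 0.37. The lowest matches were those of ZNF429, ZNF101 and ZNF14, at 25, 23 and 22 bases, with changes of 0.04, 0.18 and 0.17.

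Searched on both strands over the whole 300 bases (CATCTG or CAGATG), the hexamer was present in 25 of 210 promoters of tested members (11.9%), in 9.25% of the promoters of all genes tested and in 14.8% of all 27305 promoters. Among the tested genes with a RefSeq promoter, 21.8% of the 959 with it and 18.6% of the 9405 without it rose in siHAND2. Of the 25 tested members with it, 10 lay in the cluster from ZNF101 to ZNF254 and 15 outside. In the cluster, 10 of 10 tested members with it and 15 of 18 without it rose. Outside the cluster, 6 of 15 members with it and 43 of 167 without it rose. A match is a description of these letters, not of a bound site or a cause.

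ZNF91 is known to bind and repress SVA retrotransposons and is the most abundant member of the cluster. It measured 97.0, 94.4 and 98.4 CPM under siCTR, 109, 110.1 and 124 CPM under siMYCN and 128, 131 and 149.7 CPM under siHAND2. The groups were ordered siCTR, siMYCN, siHAND2 without overlap. ZNF91 rose by 0.24 in siMYCN (limma, adjusted p = 0.00546) and by 0.49 in siHAND2 (adjusted p = 1.25e-05), and the difference between the knockdowns was 0.25 (adjusted p = 0.00554).

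ZNF93, known for binding L1 retrotransposons, measured 35.5, 34.8 and 39.8 CPM under siCTR and 45.1, 46.5 and 52.0 CPM under siHAND2. The groups did not overlap, and ZNF93 rose by 0.37 in siHAND2 (limma, adjusted p = 0.000279). Its siMYCN libraries, at 39.3, 38.3 and 40.1 CPM, overlapped siCTR, and the change of 0.10 did not pass the test (adjusted p = 0.257).

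ZNF254, at the centromeric edge of the cluster, measured 36.8, 34.8 and 36.6 CPM under siCTR, 40.5, 43.0 and 41.8 CPM under siMYCN and 46.7, 50.7 and 58.3 CPM under siHAND2. It rose by 0.51 in siHAND2 (limma, adjusted p = 2.38e-05). ZNF708 went from a mean of 23.6 to 32.7 CPM under siHAND2 (log2 change 0.45, limma, adjusted p = 0.00016), and ZNF729, a gene with 34 predicted fingers, from 4.37 to 6.39 CPM (0.46, adjusted p = 0.00469).

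**Figure D4:**
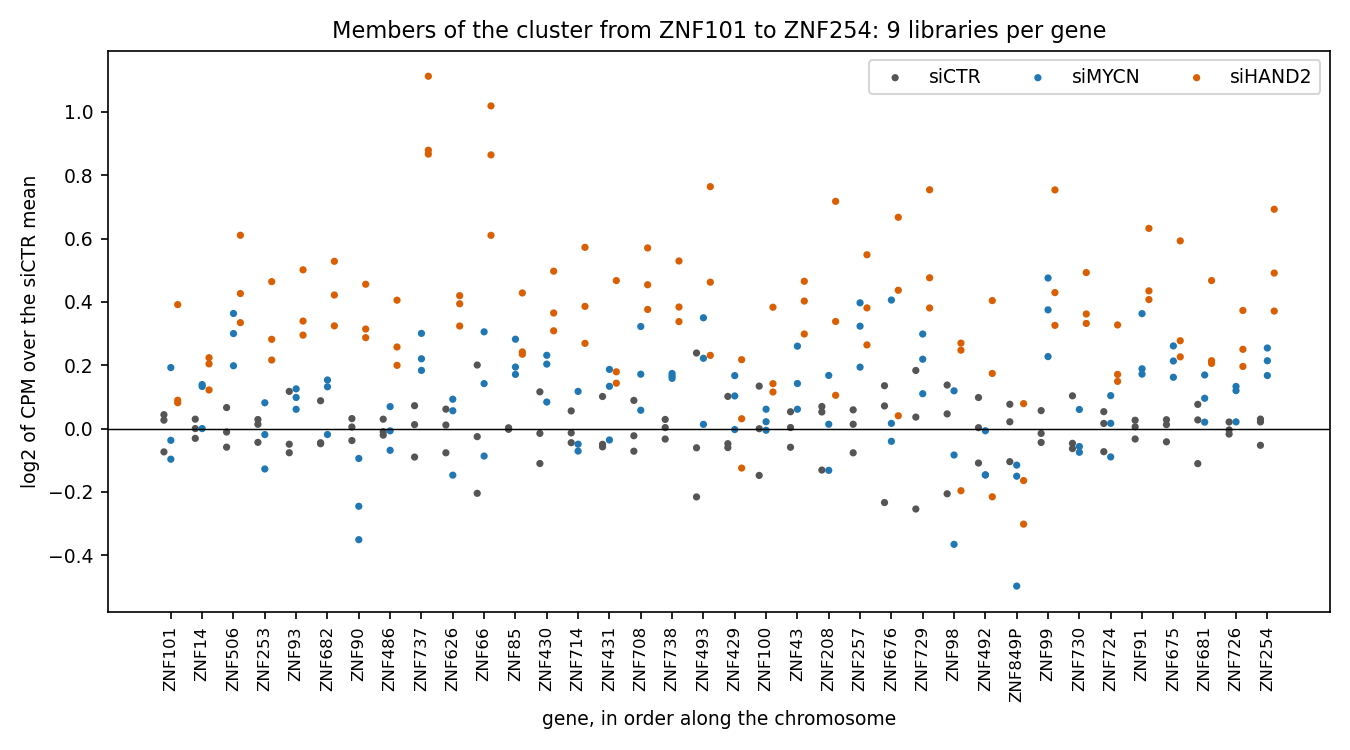
CPM of each library over the siCTR mean of the same gene, on a log2 scale, for the 36 tested members from ZNF101 to ZNF254 in their order along the chromosome. The siHAND2 points (orange) lie above 0 for nearly all genes, with ZNF737 and ZNF66 highest, and those of ZNF849P, ZNF98, ZNF492 and ZNF429 fall on both sides of 0.

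The 6 tested members of the cluster that were not called in siHAND2 were ZNF101, ZNF429, ZNF676, ZNF98, ZNF492 and ZNF849P. ZNF101 is the outermost member, and all 3 of its siHAND2 libraries (17.0 to 21.1 CPM) lay above its siCTR libraries (15.3 to 16.6 CPM). ZNF429 measured 24.7, 27.6 and 24.9 CPM under siCTR and 26.3, 23.6 and 29.9 CPM under siHAND2, with full overlap. The siHAND2 libraries of ZNF676 (4.18 to 6.45 CPM) overlapped those of siCTR (3.45 to 4.46 CPM). ZNF98, ZNF492 and the pseudogene ZNF849P lie next to each other, and their values are uncertain. Of the 75-base stretches in their transcripts, 31.0%, 24.5% and 11.6% also occur in transcripts of other genes, for ZNF98 mostly of ZNF492 and the reverse.

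The deposited values do not say how reads fitting several genes or both strands were counted. Many members of the cluster overlap a gene on the other strand, so reads of the 2 genes cannot be told apart. Among them are ZNF91, ZNF66, ZNF93, ZNF708, ZNF254, ZNF90 and ZNF730. ZNF737 overlaps AC010636.2 on the same strand. Elsewhere, ZNF443 and ZNF799, ZNF587 and ZNF417, and ZNF585B shared over 10% of their 75-base stretches with other genes and are uncertain too. ZNF737 shares 0.365% of its 75-base stretches with genes elsewhere, ZNF91 0.172% and ZNF66 6.22%.

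Some other genes within the same stretch were higher as well. Of 59 genes of the table that lie there and are no members, 18 were tested. In siHAND2 7 of these 18 rose, where 18.1% of all genes did, with a median log2 change of 0.24. In siMYCN 2 of them rose, where 24.5% of all genes did, and 1 fell. These counts are small, and the difference from the members was not tested. Some of the 59 overlap members of the cluster, and how reads of overlapping genes were counted is not known.

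The transcripts of the cluster are poor in G and C. Their median GC content was 37.02%, beside 42.8% in the other tested members and 48.2% over all genes tested. In siHAND2 replicate 3, genes of low GC content (under 43.8%, members left out) lay 0.10 above their own mean over all libraries on the log2 scale at the median, and genes of high GC content 0.09 below it. Whether GC content had a part in the counts was not tested beyond the following values. Among genes that are no members and have under 38% GC, 19.1% rose in siHAND2, with a median change of 0.06. Of the cluster members in this class, 24 of 29 rose, with a median of 0.36. After correction of each library for transcript GC content, 29 of the 36 cluster members and 83 members in all rose. Over all genes tested, 17.2% rose under this correction.

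Outside the cluster, the largest siHAND2 rises were those of ZNF846 and ZNF177, both in the cluster from ZNF414 to ZNF846. ZNF846 measured 1.71, 1.31 and 1.76 CPM under siCTR and 2.63, 2.19 and 3.51 CPM under siHAND2, and it rose by 0.53 (limma, adjusted p = 0.00654). ZNF177 measured 5.29, 6.01 and 4.54 CPM under siCTR and 7.29, 7.73 and 9.06 CPM under siHAND2, and it rose by 0.52 (adjusted p = 0.00241). Neither gene overlapped between these groups. ZNF177 overlaps the read-through gene ZNF559-ZNF177 on the same strand, so part of its reads cannot be assigned to it with certainty.

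The 2 members that fell in siHAND2, ZNF581 and ZNF667, lie in the same position cluster (ZNF628 to ZNF835) and also fell in siMYCN. ZNF581 measured 16.4, 18.3 and 16.2 CPM under siCTR, 12.6, 13.4 and 11.6 CPM under siMYCN and 13.0, 13.97 and 11.4 CPM under siHAND2. Both knockdown groups lay below siCTR and overlapped each other. It fell by 0.41 in siMYCN and by 0.38 in siHAND2 (limma, adjusted p = 0.00101 and 0.00208). It shares its strand and place with ZNF580 and CCDC106. ZNF667 fell from a mean of 38.2 to 30.8 CPM under siMYCN (log2 change -0.31, limma, adjusted p = 0.00213). In siHAND2 it measured 33.4 CPM on average, and that fall of 0.19 (limma, adjusted p = 0.0410) was lost without any 1 siCTR replicate or without siHAND2 replicate 1 or 2. ZNF667 overlaps its antisense gene ZNF667-AS1.

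Members with a KRAB-like stretch rose in siHAND2 in 80 of 207 cases (38.6%), and members with a protein lacking one in 6 of 31 (19.4%). None of the latter lies in the cluster from ZNF101 to ZNF254. Outside that cluster the counts were 50 of 172 (29.1%) and 6 of 31. In siMYCN, 43 of 207 and 7 of 31 rose. The share over all genes tested was 18.1% in siHAND2 and 24.5% in siMYCN. By number of predicted fingers, 46 of 102 members with 11 to 15 rose in siHAND2, 23 of 69 with 6 to 10, 14 of 56 with more than 15 and 3 of 11 with at most 5. These finger counts include the cluster from ZNF101 to ZNF254, where 30 of 36 tested members rose, and were not split by it.

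After MYCN knockdown the largest rise was that of ZNF536, a regulator of neuronal differentiation without a KRAB-like stretch, which stands alone between clusters (chr19:30228290-30713538, plus strand). ZNF536 measured 54.0, 53.6 and 54.3 CPM under siCTR, 81.1, 80.7 and 83.0 CPM under siMYCN and 65.2, 67.1 and 61.7 CPM under siHAND2. The 3 groups were narrow and did not overlap. ZNF536 rose by 0.59 in siMYCN (standard error 0.05, limma, adjusted p = 1.11e-07) and by 0.26 in siHAND2 (adjusted p = 0.000419). The knockdowns differed by -0.33 (siHAND2 minus siMYCN, adjusted p = 3.19e-05).

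ZNF792 was higher in siMYCN alone. It measured 14.9, 14.2 and 15.1 CPM under siCTR, 19.2, 19.98 and 22.1 CPM under siMYCN and 12.1, 13.1 and 14.2 CPM under siHAND2. It rose by 0.44 in siMYCN (limma, adjusted p = 0.000237). The siHAND2 change of -0.16 did not pass the test (adjusted p = 0.115), and the direct difference of -0.60 did (adjusted p = 1.13e-05).

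ZNF846 rose in siMYCN as well, to 3.10, 2.45 and 2.57 CPM (log2 change 0.52, limma, adjusted p = 0.00664). ZNF784, ZNF836, ZNF599, ZNF578 and ZNF653 completed the 8 largest siMYCN rises, at log2 changes of 0.43, 0.36, 0.36, 0.35 and 0.33. ZNF784 went from 3.19 to 4.64 CPM and ZNF653 from 4.78 to 6.26 CPM, and both calls were lost without siCTR replicate 3 or siMYCN replicate 1, that of ZNF653 also without siCTR replicate 2 or siMYCN replicate 2. ZNF836 went from 16.9 to 21.9 CPM and ZNF578 from 18.7 to 24.1 CPM.

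The 5 members that fell in siMYCN were ZNF581, ZNF667, ZNF587B, ZNF121 and ZNF814. ZNF121, the second highest member in CPM, measured 133, 134 and 142 CPM under siCTR, 117, 119 and 125 CPM under siMYCN and 126, 133 and 146 CPM under siHAND2. Its siMYCN libraries lay below all siCTR libraries, while siHAND2 overlapped siCTR. ZNF121 fell by 0.18 in siMYCN (limma, adjusted p = 0.0140), and the call was lost without siCTR replicate 3 or siMYCN replicate 1.

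ZNF587B and ZNF814 lie side by side near the end of the long arm on opposite strands. ZNF587B measured 32.4, 29.6 and 32.3 CPM under siCTR, 24.4, 23.3 and 26.6 CPM under siMYCN and 29.5, 31.2 and 31.4 CPM under siHAND2. Only siMYCN stood apart, and ZNF587B fell by 0.33 there (limma, adjusted p = 0.000524). ZNF814 measured 40.0, 39.2 and 41.1 CPM under siCTR, 35.8, 34.1 and 38.3 CPM under siMYCN and 40.4, 44.4 and 44.1 CPM under siHAND2. Its fall of 0.15 was close to the threshold (limma, adjusted p = 0.0482) and was lost without any 1 siCTR replicate, siMYCN replicate 1 or 2, or siHAND2 replicate 2. ZNF814 overlaps ZNF587 on the other strand. Both were higher in siHAND2 than in siMYCN, by 0.30 and 0.25 (adjusted p = 0.00145 and 0.0037).

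Both genes carry CACGTG, the E-box bound by MYC-family proteins with MAX, in nearly the same promoter stretch. They are shown because both genes fell in siMYCN. The RefSeq windows (GRCh38.p14) run 5′ to 3′ on the strand of each gene, with CACGTG in capitals.
ZNF587B, chr19:57830229-57830274, plus strand: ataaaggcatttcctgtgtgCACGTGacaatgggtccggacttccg
ZNF814, chr19:57889057-57889102, minus strand: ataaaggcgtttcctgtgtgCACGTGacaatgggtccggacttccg

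CACGTG, which reads the same on both strands, was present in the 300 bases of 8 of 210 tested member promoters (3.81%), in 10.3% of the promoters of genes tested and in 7.43% of all promoters. In siMYCN, ZNF587B and ZNF814 fell and none of the other 6 members with it passed the test. Of the 202 tested members whose promoter lacked it, 46 rose and 3 fell. Among the tested genes with a RefSeq promoter, 17.7% of those with it rose and 233 of 1065 fell. Without it, 27.3% rose and 1032 of 9299 fell. In siHAND2, where MYCN was lower still, ZNF587B and ZNF814 changed by -0.03 and 0.10 and neither passed the test. Of the 8 members with CACGTG, 2 rose and 0 fell there. Among all tested genes with it, 14.5% rose in siHAND2 and 213 of 1065 fell. The part of MYCN in these changes was not tested.

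The knockdowns were also compared directly, which does not use siCTR. MYCN itself was lower in siHAND2 than in siMYCN (-0.50, limma, adjusted p = 6.21e-07). In siHAND2, loss of HAND2 and lower MYCN thus cannot be told apart. In siHAND2 against siMYCN, 41 of 247 members were higher (16.6%) and 8 lower, beside 11.4% and 15.5% over all genes tested. The member median was 0.06, beside -0.01. In the cluster from ZNF101 to ZNF254, 18 of 36 were higher and the median was 0.22, beside 23 of 211 higher and a median of 0.05 in the other members. Without siMYCN replicate 1, 26 members were higher, and without siHAND2 replicate 3, 25. The cluster count then was 15 in both cases.

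The 5 largest differences upward were all in the cluster. ZNF737 was higher by 0.70 (limma, adjusted p = 4.00e-07), ZNF66 by 0.65 (adjusted p = 0.000357) and ZNF90 by 0.52 (adjusted p = 0.000186). ZNF90 measured 5.86, 6.30 and 7.00 CPM under siMYCN and 9.29, 9.11 and 10.2 CPM under siHAND2, either side of its siCTR values of 7.28 to 7.64. ZNF714 measured 78.5, 79.7 and 89.4 CPM under siMYCN and 99.3, 108 and 123 CPM under siHAND2 (log2 difference 0.41, adjusted p = 0.000226). ZNF730 was higher by 0.39 (adjusted p = 0.000538).

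The 5 largest differences downward were those of ZNF792, ZNF653, ZNF823, ZNF536 and ZNF441, none of them in the cluster. ZNF441 measured 22.2, 21.9 and 21.9 CPM under siCTR, 25.01, 29.3 and 28.7 CPM under siMYCN and 20.9, 21.6 and 23.7 CPM under siHAND2. Only siMYCN stood apart, and the knockdowns differed by -0.31 (limma, adjusted p = 0.00254). ZNF823 differed by -0.34 (adjusted p = 0.00666) and ZNF653 by -0.39 (adjusted p = 0.0135), which was lost without siHAND2 replicate 3.

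Of the members with a known role that are not yet described, 2 changed. ZNF274, known to recruit SETDB1 to zinc finger gene clusters, measured 31.6, 30.4 and 31.3 CPM under siCTR, 35.7, 37.003 and 36.05 CPM under siMYCN and 35.1, 35.4 and 34.3 CPM under siHAND2. Both knockdown groups lay above siCTR, and ZNF274 rose by 0.22 in siMYCN (limma, adjusted p = 0.00274) and by 0.16 in siHAND2 (adjusted p = 0.0178). The siHAND2 call was lost without siCTR replicate 2 or siHAND2 replicate 2 and under median-ratio rescaling. ZNF382, described as a repressor of growth, measured 37.8, 37.3 and 38.6 CPM under siCTR and 43.5, 48.5 and 46.1 CPM under siMYCN, and it rose by 0.27 there (adjusted p = 0.00157). In siHAND2 it measured 39.6, 40.5 and 45.0 CPM, which did not pass the test (0.13, adjusted p = 0.0956).

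ZNF224, ZNF331, ZNF568 and ZNF808 passed in neither comparison with siCTR. ZNF331, an imprinted gene, measured 21.5 ± 0.604 CPM under siCTR, 20.1 ± 1.22 CPM under siMYCN and 20.8 ± 0.339 CPM under siHAND2 (SD, n = 3). ZNF224 measured 21.2 ± 1.29, 21.6 ± 0.889 and 22.5 ± 3.25 CPM in the same order. ZNF568 measured 21.7 ± 0.974, 23.0 ± 0.744 and 22.2 ± 0.911 CPM, and ZNF808 18.2 ± 0.514, 18.8 ± 1.62 and 20.04 ± 2.57 CPM. For these 4 genes the groups overlapped.

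The partners of KRAB proteins were read from a list of 30 corepressor and heterochromatin genes, all of them tested. In siMYCN 7 rose, where 24.5% of all genes did, and 1 fell. In siHAND2 10 rose, where 18.1% of all genes did. Between the knockdowns 3 were higher in siHAND2, where 11.4% of all genes were, and 1 was lower. TRIM28, the scaffold that KRAB domains bind, measured 349 ± 5.88 CPM under siCTR, 350.1 ± 17.8 CPM under siMYCN and 358 ± 34.2 CPM under siHAND2 (SD, n = 3), with overlap of all groups. After the transcript GC correction, TRIM28 was called lower in siMYCN (-0.12, limma, adjusted p = 0.0143) and higher in siHAND2 than in siMYCN (0.14, adjusted p = 0.0064). SETDB1 measured 87.2, 92.0 and 89.7 CPM under siCTR, 85.1, 82.4 and 80.9 CPM under siMYCN and 95.6, 91.9 and 92.3 CPM under siHAND2. SETDB1 fell by 0.11 in siMYCN (limma, adjusted p = 0.0484), a call lost without any 1 siCTR or siMYCN library or siHAND2 replicate 2, and was 0.17 higher in siHAND2 than in siMYCN (adjusted p = 0.00696). TRIM24, a relative of TRIM28, rose from 123 to 148 CPM under siMYCN and to 152 CPM under siHAND2 (log2 changes 0.26 and 0.30, adjusted p = 0.000531 and 0.000198). ATRX, a chromatin remodeller of heterochromatin, rose by 0.30 in siMYCN and by 0.18 in siHAND2 (adjusted p = 8.99e-05 and 0.00742), the latter lost without siCTR replicate 2. CBX5, which binds the silencing histone mark, rose by 0.26 in siHAND2 (adjusted p = 0.000343) and by 0.12 in siMYCN (adjusted p = 0.0431), the latter lost without siCTR replicate 2 or 3, siMYCN replicate 1 or 3, or siHAND2 replicate 2 and under median-ratio rescaling. RBBP4, a histone chaperone in several repressor complexes, was 0.19 higher in siHAND2 than in siMYCN (adjusted p = 0.00521).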

How the data were processed

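RNA sequencing of 9 LAN5 libraries (3 per siRNA) was analysed from the authors' deposited table of CPM values, in which every value includes a constant of 0.0001. Reads were aligned with STAR 2.5.1 and processed with Partek, and hg19 or GRCh37 was the build, per the submitters' processing notes. The gene positions in the table, however, matched a GRCh38 gene table (91.4% of starts within 5000 bases, beside 5.63% for GRCh37), so coordinates are printed as GRCh38, counted from 1. How reads were counted, with or without strand and where several genes matched, is not given in the sources used here. A step between low values gave the depth. Among values of at most 20 steps, 80.2% to 81.6% lay within 0.02 of a whole step, too few for a count model.

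Genes that reached 1 CPM in 3 or more libraries were tested on log2(CPM + 1), which understates changes of low genes, with limma 3.58.1 in R 4.3.3 (1 mean per group over all 9 libraries, eBayes with an intensity trend, two-sided). Benjamini-Hochberg adjustment ran over the 14495 genes, and adjusted p-values under 0.05 were called. The fit was also run on simulated counts. These were drawn independently for each library, with no replicate or GC effect, so the run does not cover such effects. Errors are SDs over libraries or limma standard errors.

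Proteins were translated from the GENCODE v44lift37 transcript of each member, since no protein table was used. KRAB-like stretches were searched with phmmer (HMMER 3.4) against the first 90 residues of ZNF10 at an E-value of at most 1e-05. Fingers were counted by their cysteine and histidine pattern. Transcript length and GC content came from the same annotation, and promoters from RefSeq (216 of 259 members matched by symbol).

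The members, lists and tests were chosen with earlier results of these data known. Members were named for a known role, for the 6 highest levels, and for the 8 largest changes each way against siCTR and 5 between the knockdowns, among called members averaging 2 CPM or more, with groups that did not overlap. Cluster members not called and promoter examples were named after their values were seen. The alternatives were other pseudocounts, filters, scalings, fits and weights, the replicate number as a term, each library left out in turn, and, chosen after seeing the data, a transcript GC correction and leaving out the 3 libraries numbered 3.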

Additional observations from a re-analysis of the deposited data

How the results depend on the processing

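Median-ratio rescaling and quantile normalization moved the siMYCN counts to 28 and 27 members higher, 15 and 14 lower, and medians of 0.027 and 0.013. In siHAND2 they gave 8 and 4 members lower (17.1% and 14.9% of all genes), the GC correction gave 9 (17.6%), and testing every gene without a filter gave 1. The GC correction gave 13 lower in siMYCN (18.2%). With 1 library left out, 27 to 62 members were higher and 3 to 8 lower in siMYCN, 52 to 96 and 1 to 5 in siHAND2, and 25 to 53 higher in siHAND2 against siMYCN. For counts with 1 library left out, here and above, the share of all genes called was not set beside them. In the cluster from ZNF101 to ZNF254 the siMYCN count was 4 under both scalings and 3 to 12 with 1 library left out.

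For smaller classes the order below is median-ratio rescaling, then quantile normalization. In siMYCN, members higher were 3 and 3 from ZNF653 to ZNF791, 1 and 1 from ZNF565 to ZNF573, 0 and 0 from ZNF575 to ZNF180, 5 and 5 from ZNF264 to ZNF446, 24 and 24 with a KRAB-like stretch, and 3 and 2 without one. The GC correction gave 2 from ZNF575 to ZNF180 and 4 without a KRAB-like stretch. Without the 3 libraries numbered 3, the counts were 4 from ZNF653 to ZNF791, 1 from ZNF565 to ZNF573 and 2 from ZNF575 to ZNF180. In siHAND2, median-ratio rescaling gave 2 from ZNF653 to ZNF791, 2 from ZNF565 to ZNF573, 6 from ZNF175 to ZNF331, 12 from ZNF264 to ZNF446 and 2 without a KRAB-like stretch. Quantile normalization gave 3 from ZNF575 to ZNF180, 7 from ZNF175 to ZNF331 and 3 without a KRAB-like stretch. Without the 3 libraries numbered 3, 2 were higher from ZNF565 to ZNF573.

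Changes that turned sign had not passed the test as reported, and of the values below only that of TRIM28 after the GC correction passed it (adjusted p = 0.0143). In siMYCN, ZNF224 was at -0.032 and -0.054 under the scalings and at -0.012 to 0.071 with 1 library left out. ZNF808 was at -0.013 and -0.035, at -0.029 without the libraries numbered 3, and at -0.0087 to 0.11 with 1 library left out. TRIM28 was at -0.057 and -0.039, at -0.12 after the GC correction, and at -0.038 to 0.029 with 1 library left out. In siHAND2, ZNF224 was at -0.027 to 0.17 with 1 library left out. ZNF568 was at -0.024 and -0.013, at -0.019 after the GC correction, and at -0.0052 to 0.054 with 1 library left out. TRIM28 was at -0.023 under median-ratio rescaling and at -0.021 to 0.11 with 1 library left out, and against siMYCN at -0.025 to 0.11. The cause was not tested.

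The labels do not say that replicate numbers pair the libraries. Deviations from the group means correlated at -0.04 to 0.31 in same-number pairs, 6 of 9 over 0.1, and at -0.30 to 0.14 in other pairs, 2 of 18 over 0.1. All pairs numbered 1 and 3 were over 0.1 and none numbered 2 was, so not every pair met the mark for a paired fit, and not every library correlated best with its own number. With the replicate number as a block, 65 members were higher and 5 lower in siMYCN, 107 and 3 in siHAND2, and 55 and 11 in siHAND2 against siMYCN. The share of all genes called under this fit was not set beside these counts. At 1 CPM, counting error alone gave a coefficient of variation of 17.5% to 21.8%, which limits members of low level.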
